A study of Mus musculus with 6 samples.

Results

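The genes described here are 10 core components of the TGF-beta pathway: the ligand Tgfb1, the receptors Tgfbr1, Tgfbr2 and Tgfbr3, the intracellular mediators Smad2, Smad3, Smad4 and Smad7, and the repressors Ski and Skil. They were chosen by symbol, and all 10 were among the 13564 genes of the deposited normalized table and the 13691 genes tested, of 55487 genes in the count files. RNA was sequenced from 3 Foxo1TKO and 3 Foxo1Ctrl cultures of naive CD4 T cells from lymph nodes of C57BL/6J mice, to compare activated T cells with and without the transcription factor Foxo1. Foxo1TKO mice carry floxed Foxo1 alleles and a Cre recombinase driven by the CD4 promoter, which is active from the double-positive stage of thymocytes, so that Foxo1 is lost in CD4 and CD8 T cells alike and before the naive cells were sorted. Foxo1Ctrl mice are the controls of that line, which by the paper have the floxed alleles but do not express the Cre. By the study's methods both lines also carry a Foxp3-GFP reporter and the mice were young adults, and the labels give neither age nor sex. All cultures received the 145-2C11 anti-CD3 antibody at 0.1 µg/ml and 250000 splenocytes of CD3e KO mice, which lack T cells, and were kept for 4 days. The sources used here do not say whether the 3 libraries of a genotype came from separate mice, so p-values measure the spread between these libraries, which may be technical, nor do they state if splenocytes were removed before the RNA was taken.

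TGF-beta is secreted in a latent complex and must be released before it can bind. The active ligand binds the type II receptor (Tgfbr2), which recruits and phosphorylates the type I receptor (Tgfbr1), and the latter phosphorylates Smad2 and Smad3. These join Smad4 and enter the nucleus, where Ski and Skil (SnoN) hold target genes down, while Smad7 is made in response to the signal and blocks the receptor. In T cells the pathway restrains proliferation and effector function and takes part in the induction of Foxp3-expressing regulatory T cells and of resident memory cells.

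Foxo1, the targeted gene, had 46.5 to 115 normalized counts in the Foxo1TKO libraries and 1529 to 2285 in the Foxo1Ctrl libraries. The libraries held 14783890 to 19675447 counts. A gene was called changed at an adjusted p under 0.05 with a fold change over 1.5 in edgeR's quasi-likelihood test (Benjamini-Hochberg, over all genes tested). By this rule 23.0% of all genes tested were called, 11.2% higher and 11.8% lower in Foxo1TKO, so that a call by itself was common in this comparison. Summed over 11 T cell markers, the level was 11195 to 12099 TPM (transcript abundance per length, scaled to a common total per library) in Foxo1TKO and 12343 to 12775 in Foxo1Ctrl. The 10 B cell markers summed to 7.19 to 10.4 TPM in Foxo1TKO and 23.0 to 30.1 TPM in Foxo1Ctrl, and 4 of the 8 tested were called lower. Of the other lists, markers of plasma cells (2 of 3 tested lower), stromal cells (1 lower, Pecam1), regulatory T cells (Ikzf2 higher, Ctla4 lower), dendritic cells (Itgax higher) and NK cells (Eomes higher) held calls, as did 1 T cell marker (lower). No call was made among the few tested markers of CD8 T cells (1 of 2 tested), macrophages and monocytes (1 of 10) or erythroid cells (2 of 6). None of the 7 neutrophil or 6 platelet markers had enough reads to be tested. The neutrophil markers summed to 0.28 to 7.84 TPM in Foxo1TKO and 0 to 0.31 TPM in Foxo1Ctrl, with the most reads for Ngp (37, 32 and 0 in Foxo1TKO and 0 in each Foxo1Ctrl library). In bulk RNA, fewer cells of a type and less RNA per cell cannot be told apart, and the part of these markers in the results on the pathway genes was not tested.

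Among the 10 genes, 1 was called higher in Foxo1TKO (Skil) and 3 were called lower (Tgfbr2, Smad4 and Smad7), against the 23.0% called among all genes. The other 6 were not called. The median log2 fold change of the 10 was -0.12, beside 0.01 for all genes tested. In 2 genes (Tgfb1 and Skil) every Foxo1TKO library was above every Foxo1Ctrl library, and in 4 (Tgfbr2, Smad3, Smad4 and Smad7) every one was below, where 42.7% of all genes tested had no overlap between the genotypes (21.5% higher and 21.2% lower in Foxo1TKO). When the estimated transcript length of each gene in each library was allowed for, 2 of the 10 remained called, Skil higher and Tgfbr2 lower, beside 22.0% of all genes. Smad4 and Smad7 kept their direction but were no longer called.

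**Figure D1:**
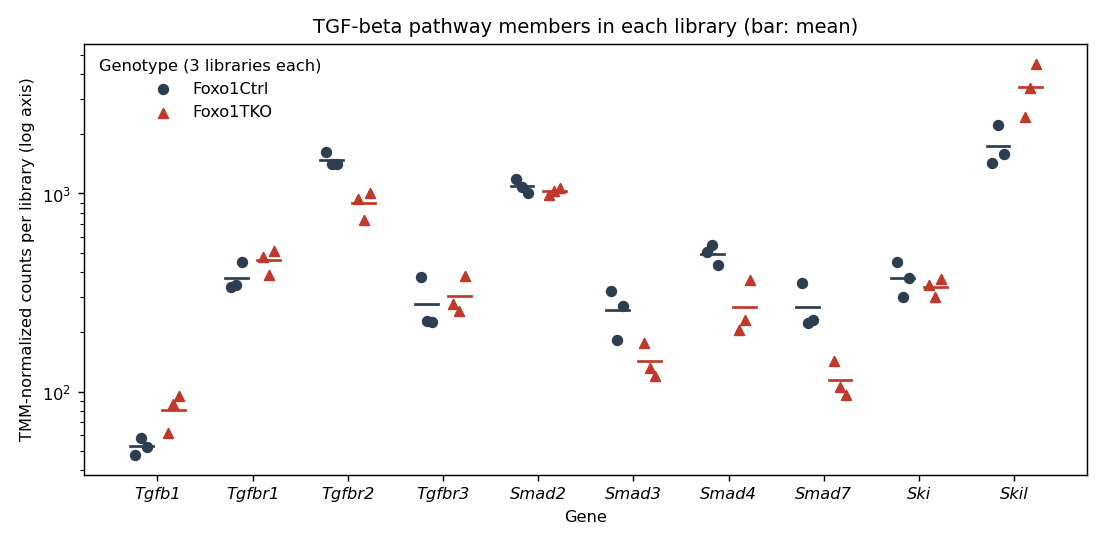
Normalized counts (TMM-scaled, log axis) of the 10 genes in each of the 3 Foxo1Ctrl (circles) and 3 Foxo1TKO libraries (triangles), with a bar at each mean. Skil and Tgfb1 lie higher in all 3 Foxo1TKO libraries, whereas Tgfbr2, Smad3, Smad4 and Smad7 lie lower in all 3. Heights of different genes are not per length and are not to be compared.

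The promoter sequence of Tgfbr2 is shown because it is the receptor gene that was called, and that of Itgb8 because it is the gene of TGF-beta activation with the largest fitted change. Both are the 250 bases before the transcription start in RefSeq (GRCm38.p6), read on the minus strand. Tgfbr2 is at chr9:116175364-116175613 and Itgb8 at chr12:119238277-119238526. The capitals mark CAGAC, the short element that Smad3 and Smad4 are known to bind, searched on both strands (CAGAC and GTCTG).

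Tgfbr2: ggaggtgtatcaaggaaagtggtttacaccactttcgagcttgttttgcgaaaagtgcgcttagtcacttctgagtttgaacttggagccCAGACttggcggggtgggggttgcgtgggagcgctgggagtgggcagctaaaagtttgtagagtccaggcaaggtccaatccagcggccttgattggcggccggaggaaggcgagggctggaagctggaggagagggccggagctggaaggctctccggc
Itgb8: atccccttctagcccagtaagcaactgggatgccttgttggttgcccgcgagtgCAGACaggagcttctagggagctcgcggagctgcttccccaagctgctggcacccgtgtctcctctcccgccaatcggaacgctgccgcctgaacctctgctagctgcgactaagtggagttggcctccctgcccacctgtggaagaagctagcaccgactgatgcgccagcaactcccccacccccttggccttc

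The element begins 160 bases before the RefSeq start in Tgfbr2 and 196 bases before it in Itgb8. By GENCODE M21 the Itgb8 gene starts further upstream, at chr12:119238802 on the minus strand, so the printed Itgb8 window lies within that annotated gene. Of the 10 genes, 5 had a promoter in the table (Tgfb1, Tgfbr1, Tgfbr2, Smad3 and Ski, with 6 entries), and CAGAC was found in 2 entries, of Tgfbr1 and Tgfbr2. It was found in 42.2% of all 32851 promoters, so its presence sets none of them apart. The Foxo motif TGTTTAC (3.17% of all promoters) and the Smad palindrome GTCTAGAC (0.167%), which holds neither CAGAC nor GTCTG, were searched on both strands and had no match in the 6 entries, which says only that these letters are not in these windows. Skil, Smad2, Smad4, Smad7 and Tgfbr3 had no entry.

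Tgfb1 (ENSMUSG00000002603) encodes the main TGF-beta of lymphocytes. It had 61.7, 86.9 and 94.4 normalized counts in Foxo1TKO libraries 1 to 3 and 47.7, 58.3 and 52.3 in Foxo1Ctrl libraries 1 to 3. The lowest Foxo1TKO library was just above the highest Foxo1Ctrl library. Its log2 fold change of 0.61 (SE 0.28, 95% interval -0.04 to 1.27, n = 3 per genotype) did not pass the test (edgeR quasi-likelihood, Benjamini-Hochberg adjusted p = 0.160). At 40 to 99 reads per library it was the gene of the 10 with the fewest reads.

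Tgfbr2 (ENSMUSG00000032440, GRCm38 chr9:116084293-116175360, minus strand), which binds the ligand first, was lower in Foxo1TKO. Its normalized counts were 937, 736 and 1004 in the Foxo1TKO libraries and 1613, 1410 and 1408 in the Foxo1Ctrl libraries. All 3 Foxo1TKO libraries lay well below all 3 Foxo1Ctrl libraries, with means of 893 ± 140 and 1477 ± 118 (SD, n = 3 each). The log2 fold change was -0.73 (SE 0.17), and edgeR's quasi-likelihood test gave an adjusted p of 0.0175 (Benjamini-Hochberg). Per transcript length the genotypes were also apart, at 6.14 to 9.51 TPM in Foxo1TKO and 10.1 to 14.1 TPM in Foxo1Ctrl. The call was kept in 13 of 15 other analyses and lost without Foxo1TKO library 2 (log2 fold change -0.59, edgeR adjusted p = 0.0905) or without Foxo1Ctrl library 1 (-0.69, edgeR adjusted p = 0.0631).

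Tgfbr1, the kinase that phosphorylates Smad2 and Smad3, gave no call in either direction. It had 476, 390 and 513 normalized counts in Foxo1TKO and 336, 343 and 450 in Foxo1Ctrl, and the genotypes overlapped. This gave a log2 fold change of 0.29, with a 95% interval from -0.18 to 0.75 and an edgeR adjusted p of 0.347 (Benjamini-Hochberg).

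The balance of the signalling receptors was compared within each library as the ratio of Tgfbr2 to Tgfbr1 in TPM, which does not depend on library scaling. The ratio was 1.48, 1.31 and 1.35 in the Foxo1TKO libraries and 3.23, 2.7 and 2.09 in the Foxo1Ctrl libraries. Tgfbr2 therefore exceeded Tgfbr1 per length in all 6 libraries, but by less in each Foxo1TKO library than in any Foxo1Ctrl library. The difference in log2 ratio was -0.94, with means of 0.46 ± 0.09 and 1.40 ± 0.31 (SD, n = 3 each). The exact two-sided permutation test gave p = 0.1, the smallest that 3 against 3 libraries allow, and 0.2 after adjustment over the 3 ratios examined.

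Tgfbr3 (betaglycan) presents ligand to the signalling receptors and has no kinase of its own. It had 276, 254 and 385 normalized counts in Foxo1TKO and 380, 226 and 224 in Foxo1Ctrl. One library of each genotype was high and the other two were low, and the genotypes overlapped, with a log2 fold change of 0.14 (95% interval -0.51 to 0.79, edgeR adjusted p = 0.764, Benjamini-Hochberg). Tgfbr3 shares exon sequence on its own strand with Gm43422, so its reads could be split between the genes.

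Smad2 and Smad3 are the receptor-activated Smads of this branch. Smad2 had 977, 1027 and 1070 normalized counts in Foxo1TKO and 1177, 1074 and 1011 in Foxo1Ctrl. The values of the genotypes overlapped within a narrow range, with a log2 fold change of -0.08, a 95% interval from -0.41 to 0.24 and an edgeR adjusted p of 0.712 (Benjamini-Hochberg). That interval holds no change as large as 1.5-fold in either direction.

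Smad3 (ENSMUSG00000032402) had 175, 132 and 119 normalized counts in Foxo1TKO and 322, 182 and 271 in Foxo1Ctrl. No Foxo1TKO library reached the lowest Foxo1Ctrl library, although the gap between 175 and 182 was small. The log2 fold change of -0.86 (SE 0.28, 95% interval -1.51 to -0.22) missed the threshold, with an edgeR adjusted p of 0.0582 (Benjamini-Hochberg). It passed in 4 of 15 other analyses, among them DESeq2's Wald test (adjusted p = 0.0205, with 27.0% of all genes tested called) and the fits without Foxo1TKO library 1 (edgeR adjusted p = 0.0498) or Foxo1Ctrl library 2 (edgeR adjusted p = 0.0236). Per length the genotypes overlapped, at 1.75 to 3.32 TPM in Foxo1TKO and 2.34 to 5.07 TPM in Foxo1Ctrl.

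The ratio of Smad3 to Smad2 in TPM was 0.0943, 0.0686 and 0.0557 in the Foxo1TKO libraries and 0.122, 0.0854 and 0.152 in the Foxo1Ctrl libraries. Smad2 was thus the more abundant of the pair per length in every library. The difference in log2 ratio was -0.71 (exact permutation p = 0.2, two-sided, n = 3 per genotype, 0.2 adjusted over 3 ratios), and the first Foxo1TKO library overlapped the Foxo1Ctrl range.

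Smad4 (ENSMUSG00000024515, chromosome 18), the partner that both receptor-activated Smads share, had 205, 231 and 366 normalized counts in Foxo1TKO and 507, 547 and 436 in Foxo1Ctrl. Each Foxo1TKO library was below each Foxo1Ctrl library, with means of 267 ± 86.3 and 496 ± 56.0 (SD, n = 3 each). The log2 fold change was -0.89 (SE 0.25), with an edgeR adjusted p of 0.0368 (Benjamini-Hochberg). This call depended on how transcript length was treated. The effective length that the authors' counting estimated for Smad4, which follows the mix of its transcripts, was 3152 bases in Foxo1TKO library 1, 2979 in Foxo1Ctrl library 1 and 3215 in Foxo1Ctrl library 3, but 2269 to 2334 in the other 3 libraries. With these lengths as offsets the log2 fold change was -0.73 and the edgeR adjusted p 0.177. In TPM the genotypes overlapped, at 4.76 to 9.85 in Foxo1TKO and 9.21 to 13.3 in Foxo1Ctrl. The call was kept in 7 of 15 other analyses. With a library left out it held only without Foxo1TKO library 3, and the log2 fold change ran from -1.18 to -0.74 and the edgeR adjusted p from 0.0150 to 0.153.

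Smad7 (ENSMUSG00000025880, chromosome 18), the inhibitory Smad and itself a target of the pathway, had the largest fold change of the 10. Its normalized counts were 143, 105 and 95.5 in Foxo1TKO and 352, 223 and 231 in Foxo1Ctrl. The highest Foxo1TKO library was below the lowest Foxo1Ctrl library, and the means were 115 ± 25.0 and 268 ± 72.2 (SD, n = 3 each). The log2 fold change was -1.23 (SE 0.28, edgeR adjusted p = 0.0154, Benjamini-Hochberg). The estimated length of Smad7 was shorter in the first library of each genotype (3154 bases in Foxo1TKO and 3502 in Foxo1Ctrl, against 4109 to 4117 in the others). With lengths as offsets the fold change was nearly as large (-1.16 on the log2 scale) but the edgeR adjusted p was 0.0568, and in TPM Foxo1TKO library 1 (3.31) lay above Foxo1Ctrl library 2 (3.07). The call was kept in 9 of 15 other analyses, and it was lost without Foxo1TKO library 2 (edgeR adjusted p = 0.0775) or 3 (0.0576) or Foxo1Ctrl library 1 (0.0596).

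Ski and Skil are related proteins that bind Smad complexes and recruit corepressors, and Skil is also induced by the pathway it represses. Ski had 345, 300.1 and 368 normalized counts in Foxo1TKO and 453, 299.6 and 374 in Foxo1Ctrl. The genotypes overlapped, and the log2 fold change was -0.15 (95% interval -0.64 to 0.33, edgeR adjusted p = 0.645, Benjamini-Hochberg).

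Skil (ENSMUSG00000027660, GRCm38 chr3:31095058-31122577, plus strand) was higher in Foxo1TKO. It had 2428, 3404 and 4528 normalized counts in the Foxo1TKO libraries and 1425, 2205 and 1576 in the Foxo1Ctrl libraries. All 3 Foxo1TKO libraries were above all 3 Foxo1Ctrl libraries, but the spread within Foxo1TKO was wide, with means of 3453 ± 1051 and 1735 ± 414 (SD, n = 3 each). The log2 fold change was 0.99 (SE 0.26, edgeR adjusted p = 0.0290, Benjamini-Hochberg). Its estimated length hardly varied between libraries, from 6264 to 6384 bases, and in TPM the genotypes stayed apart (28.2 to 44.5 against 15.3 to 19.6). The call was kept in all 9 other analyses on 6 libraries. With a library left out it was kept in 2 of 6, lost without Foxo1TKO library 2 or 3 or Foxo1Ctrl library 1 or 3, with a log2 fold change from 0.76 to 1.20 and an edgeR adjusted p from 0.0148 to 0.113 over the 6.

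**Figure D2:**
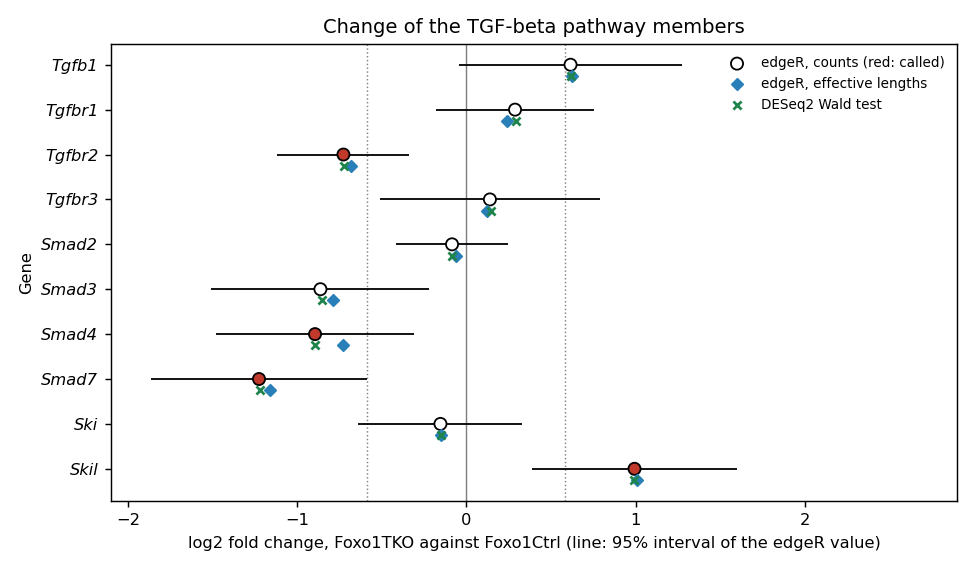
Log2 fold change of Foxo1TKO against Foxo1Ctrl for the 10 genes (circles, red where called, with 95% intervals) with the values from effective-length offsets (diamonds) and from DESeq2 (crosses). Solid and dotted vertical lines mark no change and a 1.5-fold change. The sign of each gene is the same in the 3 analyses, and Smad4 moves most with length, from -0.89 to -0.73.

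Within each library the ratio of Skil to Ski in TPM was 4.90, 7.83 and 8.55 in Foxo1TKO and 2.15, 5.06 and 2.92 in Foxo1Ctrl. Skil exceeded Ski per length in all 6 libraries, and Foxo1TKO library 1 was just below Foxo1Ctrl library 2. The difference in log2 ratio was 1.12 (exact permutation p = 0.2, two-sided, n = 3 per genotype, 0.2 adjusted over 3 ratios).

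**Figure D3:**
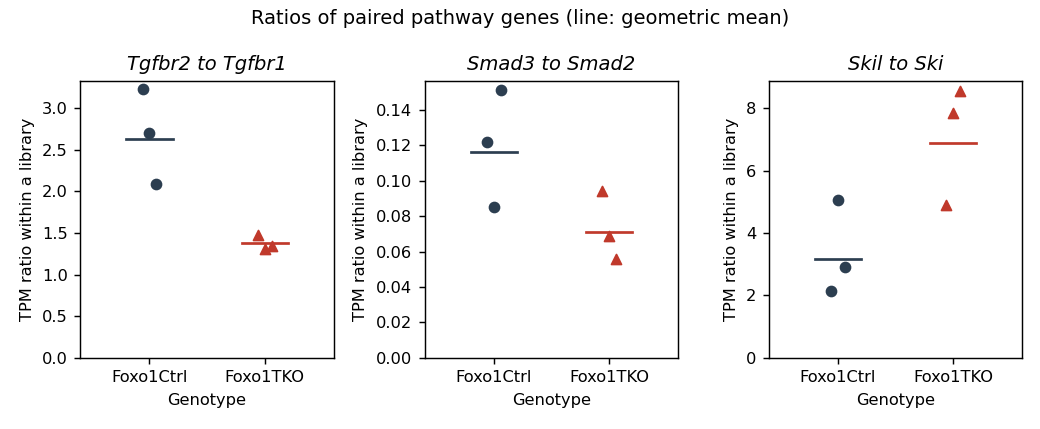
Ratio of the TPM values of paired genes within each library, for 3 Foxo1Ctrl (circles) and 3 Foxo1TKO libraries (triangles), with a line at the geometric mean. Tgfbr2 to Tgfbr1 is lower in each Foxo1TKO library (1.31 to 1.48) than in each Foxo1Ctrl library (2.09 to 3.23), whereas the other two ratios overlap.

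Ranked per length in the Foxo1Ctrl libraries, Smad2 was the highest of the 10 genes (33.4 ± 5.90 TPM, SD, n = 3). Skil followed at 17.3 ± 2.18 TPM, then Tgfbr2 at 12.1 ± 1.99 and Smad4 at 11.4 ± 2.05, whose ranges overlapped. Ski (5.6 ± 1.63), Tgfbr1 (4.63 ± 1.06), Smad7 (4.58 ± 2.01), Smad3 (4.06 ± 1.5) and Tgfbr3 (3.25 ± 1.06) followed with each range overlapping the next, and Tgfb1 was lowest at 1.51 ± 0.11 TPM. In the Foxo1TKO libraries Skil (36.0 ± 8.13 TPM) and Smad2 (32.9 ± 2.02 TPM) had overlapping ranges at the top. At the bottom Tgfb1 (2.43 ± 0.15), Smad3 (2.42 ± 0.81) and Smad7 (2.14 ± 1.02) each overlapped the next in TPM.

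The libraries also differed within each genotype. Foxo1TKO library 1 and Foxo1Ctrl libraries 1 and 3 were high in Cd4, the coreceptor of these cells, at 7731, 8385 and 6310 normalized counts, beside 2409 to 3719 in the other 3, so that Cd4 overlapped between genotypes. Within each genotype Smad3 and Smad7 were highest in those libraries, and Skil, Smad4 and Tgfb1 were lowest in them. The longer estimated lengths of Smad4 were found in the same 3 libraries. The part of this in the results on these 5 genes was not tested.

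Around these 10 genes, 9 lists held 112 further pathway genes, of which 83 were tested, and 18 were called higher and 13 lower in Foxo1TKO (37.3% of those tested, beside 23.0% of all genes tested). Both these lists and the 10 genes were chosen with earlier results of these data known, so the shares called are not a test of the pathway. The named genes are those called with the largest changes in each direction. Adjusted p-values are from the same test (edgeR, Benjamini-Hochberg). Of the 31 calls, 15 held in every alternative run that tested the gene. Among them were those of Itgb8, Ltbp1, Bambi, Acvrl1, Zeb2, Fhl2, Hdac1, Klf10, Gadd45b, Ccr8, Nt5e, Gzmb, Myc and Eomes. The other 16 were lost in at least 1 analysis without a library. Ltbp1 and Acvrl1 were tested in 12 alternative runs, not 15, with only 3 of the 6 fits without a library. Without a Foxo1TKO library Ltbp1 had too few reads to be tested, as had Acvrl1 without a Foxo1Ctrl library. Those fits therefore say nothing on these calls.

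**Figure D4:**
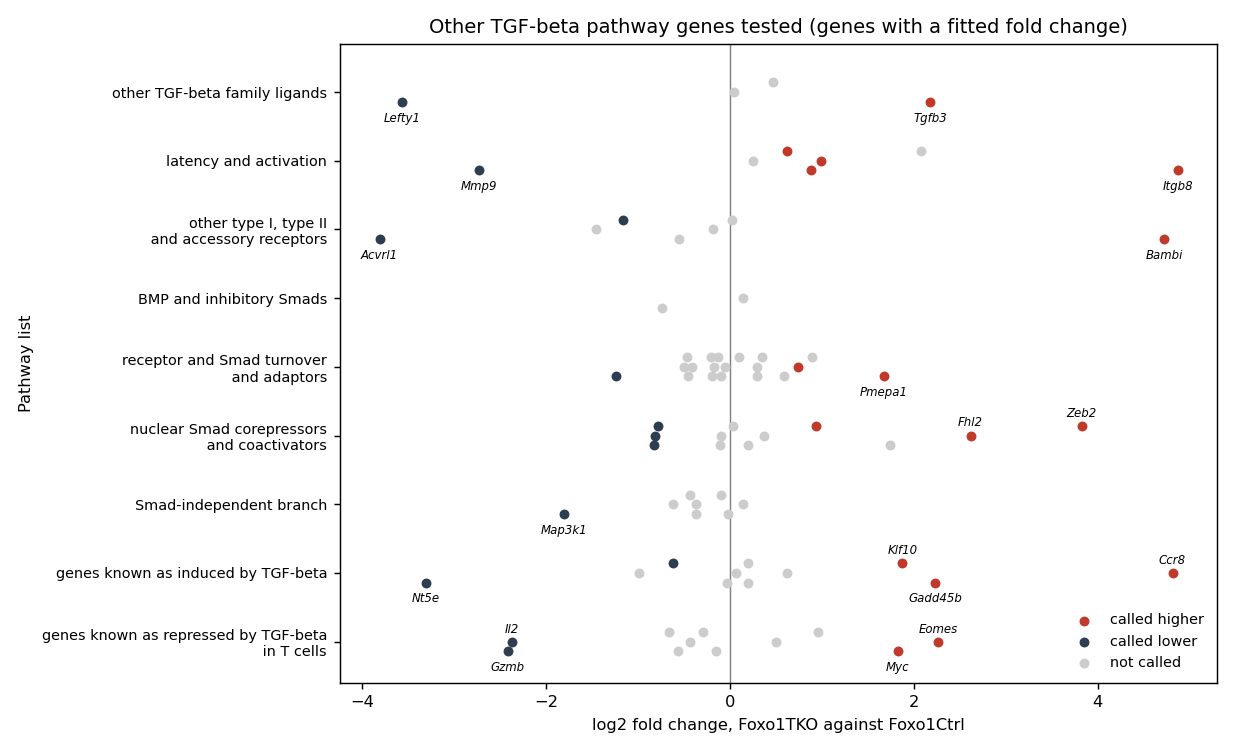
Log2 fold change of Foxo1TKO against Foxo1Ctrl for the tested genes of 9 pathway lists, 1 point per gene (red called higher, dark called lower, grey not called), with called genes beyond 1.5 on the log2 scale named. Genes at or near 0 in Foxo1Ctrl, such as Ltbp1, have no fitted value and are left out. Itgb8, Ccr8 and Bambi have the largest values, each above 4.7.

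In the list on latency and activation of TGF-beta, 5 of 8 tested genes were called higher and 1 lower. That is 75.0% of them, beside 23.0% of all genes tested, and their median log2 fold change was 0.93, beside 0.01. Itgb8, the integrin chain that with Itgav forms the receptor releasing active TGF-beta from its latent complex, had 679, 785 and 1089 normalized counts in Foxo1TKO and 14.3, 24 and 47.5 in Foxo1Ctrl. Its values stood far apart in every library, with a log2 fold change of 4.87 (SE 0.43, edgeR adjusted p = 0.000282), and the call held in all 15 other analyses. Itgav, its partner, was also called higher, with a log2 fold change of 0.88 (SE 0.19, edgeR adjusted p = 0.0136), as was Lrrc32 (GARP), which tethers latent TGF-beta to the cell surface, with 0.99 (SE 0.22, edgeR adjusted p = 0.0137). The call on Itgav was kept in 2 of the 6 analyses without a library, and that on Lrrc32 in 4. Furin, the protease that cleaves the TGF-beta precursor, had a log2 fold change of 0.62 (edgeR adjusted p = 0.0376) and lost its call in each of the 6 analyses without a library. Ltbp1, a matrix protein that binds the latent complex, had 42, 59 and 98 reads in Foxo1TKO and 0 in each Foxo1Ctrl library, so that it was at least 19.4-fold higher, taking 3 reads as the limit of a count of 0 (counting error only). Mmp9, a protease that can also release TGF-beta, was called lower (log2 fold change -2.73, edgeR adjusted p = 0.0131). It had few reads, 14, 4 and 2 in Foxo1TKO and 27, 40 and 45 in Foxo1Ctrl. With length offsets its change was smaller but still called (-2.25, edgeR adjusted p = 0.0218).

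Of the 13 other ligands of the family, 4 were tested, with 1 called higher and 1 lower (50.0%, beside 23.0% of all genes tested). Tgfb3 had 172, 90.4 and 70.8 normalized counts in Foxo1TKO and 28.6, 4.57 and 39.7 in Foxo1Ctrl, with no overlap and a log2 fold change of 2.18 (SE 0.65, edgeR adjusted p = 0.0455). Its call was lost in 5 of the 6 analyses that left out a library, and its exons overlap antisense genes (Gm37804 and Gm48008) whose reads cannot be told apart where counting ignores strand. Lefty1, an antagonist of Nodal, was called lower at few reads, with a mean of 1.41 normalized counts in Foxo1TKO and 19.3 in Foxo1Ctrl (edgeR adjusted p = 0.0311). Its call was lost with length offsets (log2 fold change -3.07, edgeR adjusted p = 0.0575) and without Foxo1TKO library 2 or 3. Without a Foxo1Ctrl library it had too few reads to be tested. The call was thus kept in 9 of 12 other analyses, but in only 1 of the 3 without a library that could test it.

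Among other receptors, 1 of 7 tested was called higher and 2 lower (42.9%, beside 23.0% of all genes tested). Bambi, a decoy receptor without a kinase that dampens TGF-beta and BMP signals, rose from 5.72 to 10.7 normalized counts in Foxo1Ctrl to 177 to 253 in Foxo1TKO, with a log2 fold change of 4.72 (SE 0.34, edgeR adjusted p = 0.000133) that held in all 15 other analyses. Acvrl1 (ALK1), a type I receptor best known from endothelium, was called lower (log2 fold change -3.81, edgeR adjusted p = 0.00362), with 1.75 to 7.51 normalized counts in Foxo1TKO and 30.9 to 69.2 in Foxo1Ctrl. Nrp1, a coreceptor that binds TGF-beta, was also called lower (log2 fold change -1.17, edgeR adjusted p = 0.0197), and this call was kept in 3 of the 6 analyses without a library. Beside these, neither of the 2 tested Smads of the BMP branch or inhibitory class was called. Smad5, the more abundant, had a log2 fold change of 0.14 (95% interval -0.43 to 0.70). Smad1 had one of -0.74 (95% interval -1.35 to -0.14, edgeR adjusted p = 0.0761), with 57.0 to 88.0 normalized counts in Foxo1TKO and 111 to 129 in Foxo1Ctrl and no overlap. Smad6 and Smad9 had 0 reads in all 6 libraries.

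Of the 19 tested genes of receptor and Smad turnover, 16 were not called (15.8% called, beside 23.0% of all genes tested). Smurf1, a ubiquitin ligase that acts with Smad7 on the receptor, was called lower (log2 fold change -1.24, edgeR adjusted p = 0.0234). The call on Smurf1 was kept in 2 of the 6 analyses without a library. Strap, an adaptor that acts with Smad7, was called higher (log2 fold change 0.74, edgeR adjusted p = 0.0149), a call kept in 4 of those 6 analyses. Pmepa1, a target gene that sequesters receptor-activated Smads, was called higher on counts (log2 fold change 1.67, edgeR adjusted p = 0.0353) but not with length offsets (1.14, edgeR adjusted p = 0.172). The call on Pmepa1 was kept in only 6 of 15 other analyses and in 1 of the 6 without a library. In the branch that does not use Smads, 1 of 8 genes was called (12.5%, beside 23.0% of all genes tested). This was Map3k1, which was lower (log2 fold change -1.80, edgeR adjusted p = 0.0160). The call on Map3k1 was kept in 4 of the 6 analyses without a library.

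The nuclear partners of Smads moved both ways, with 3 of 12 tested called higher and 3 lower (50.0%, beside 23.0% of all genes tested). Zeb2, a repressor that binds Smads, had 556 to 655 normalized counts in Foxo1TKO and 32.2 to 59.5 in Foxo1Ctrl, with a log2 fold change of 3.82 (SE 0.27, edgeR adjusted p = 0.000128). Its relative Zeb1 was called lower, with 1079 to 1501 against 2110 to 2388 normalized counts (log2 fold change -0.82, edgeR adjusted p = 0.00998). The acetyltransferases Crebbp (-0.82, edgeR adjusted p = 0.0276) and Ep300 (-0.78, edgeR adjusted p = 0.0488), coactivators of Smads and of many other factors, were called lower on the log2 scale. The call on Ep300 was kept in 8 of 15 other analyses and in 1 of the 6 without a library, and that on Crebbp in 3 of those 6. Hdac1, a deacetylase of corepressor complexes, was called higher (0.94, edgeR adjusted p = 0.00999), as was Fhl2 (2.62, edgeR adjusted p = 0.000636). The exons of Zeb2 overlap those of the antisense gene Zeb2os. Exons of Foxo1, Itgav, Furin, Acvrl1, Zeb1, Eomes and Foxp3, among the genes named, also overlap antisense genes, with the same limit as for Tgfb3.

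Genes known as targets of the pathway did not move in one direction. Of 12 tested genes known as induced by TGF-beta, 4 were called higher and 2 lower (50.0%, beside 23.0% of all genes tested). Their median log2 fold change was 0.19. Klf10 (TIEG1), an early target, had 3179, 2010 and 1692 normalized counts in Foxo1TKO and 750, 311 and 815 in Foxo1Ctrl, with a log2 fold change of 1.87 (SE 0.39, edgeR adjusted p = 0.0111). Gadd45b was called higher by 2.23 on the log2 scale (SE 0.20, edgeR adjusted p = 0.000302). Ccr8, a chemokine receptor, was called higher by 4.81 on the log2 scale (SE 0.24, edgeR adjusted p = 3.4e-05), with 8450 to 10893 against 247 to 384 normalized counts. Nt5e (CD73) was called lower, with 27.2 to 50.7 against 245 to 492 normalized counts (log2 fold change -3.31, edgeR adjusted p = 0.000839), and Id3 was called lower by a smaller amount (-0.63, edgeR adjusted p = 0.0388). The call on Id3 was kept in 1 of the 6 analyses without a library. Beside these, Foxp3, the regulatory T cell factor that TGF-beta can induce, was at 6.44 to 14.9 normalized counts in Foxo1TKO and 15.5 to 27.4 in Foxo1Ctrl and was not called (edgeR adjusted p = 0.165).

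Of the 11 genes known as repressed by TGF-beta in T cells, all tested, 2 were called higher and 2 lower. That is 36.4%, beside 23.0% of all genes tested, and their median log2 fold change was -0.29. Eomes, a T-box factor of cytotoxic and memory cells, had a log2 fold change of 2.27 (SE 0.22, edgeR adjusted p = 0.000425), and Myc, the regulator of growth, one of 1.83 (SE 0.20, edgeR adjusted p = 0.000761). Il2, the T cell growth factor, was called lower by -2.38 on the log2 scale (SE 0.54, edgeR adjusted p = 0.0160), and Gzmb, a cytotoxic granule protease, by -2.41 (SE 0.47, edgeR adjusted p = 0.00888).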

How the data were processed

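The authors aligned reads to GRCm38 with STAR 2.7.6a and deposited, per gene and library, RSEM 1.3.1 expected counts with TPM and effective lengths, keeping reads that mapped to at most 10 loci. RSEM shares a read between genes, and its estimates were rounded here. The authors also deposited a normalized signal for 13564 genes, which equals the count over a size factor and the relative effective length (99.88% of values within 0.1%). Strandedness is not given in the sources used here. Genotypes came from the labels, with 3 libraries each.

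Genes reaching 10 counts in 3 or more libraries entered edgeR 4.0.16 (TMM, glmQLFTest, R 4.3.3) on genotype alone, with Benjamini-Hochberg adjustment and calls at an adjusted p below 0.05 and a change above 1.5-fold. Normalized counts are TMM-scaled. DESeq2 1.42.0 (the authors' test), limma 3.58.1, other filters, effective-length offsets and each library left out were alternatives. Ratios used exact permutation tests in scipy 1.17.1. The named genes were the 10 members, Foxo1, up to 4 called genes with the largest change per direction in each of 9 pathway lists (the most abundant where none was called), and marker genes. Furin was the fifth called higher in its list and was named after its values were seen, as were Smad1 and, among the markers, Ikzf2, Ctla4, Itgax and Ngp. One called gene of the lists is counted but not reported here by name. Members and lists were chosen with earlier results of these data known. Tests were tried on simulated data. Gene positions were from GENCODE M21.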

Additional observations from a re-analysis of the deposited data

How the results depend on the processing

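The 4 calls among the 10 genes became 2 with effective-length offsets and 2 with limma on the deposited signal at a pseudocount of 1 or 10, Smad4 and Smad7 being the ones lost. With a library left out the count ran from 0 (without Foxo1TKO library 2, and again without Foxo1Ctrl library 1) to 4. Calls over all genes ran from 1592 (without Foxo1TKO library 2) and 1848 (without Foxo1Ctrl library 1) to 3164, against 3146 with all libraries, and those in the 9 pathway lists from 14 to 27, against 31. Fewer libraries enter these fits, but the fall differed by library, and its cause was not tested. Tgfbr3 changed sign without Foxo1TKO library 3 (-0.054) and without Foxo1Ctrl library 3 (-0.0025), with 0.41 as the highest value without a library, and no other of the 10 genes did so in its 15 alternatives. The 3 ratios kept their sign in all 27 alternatives, but only those that left out a library could have changed it. The deposited signal and the counts over effective length hold the same reads per length as TPM. The replicate block averages the same ratios. The labels do not say whether same-numbered libraries of the genotypes were paired, although the paper used paired tests for other readouts of such cultures. Deviations of same-numbered libraries correlated at 0.43, 0.20 and -0.11, and those of differently numbered libraries at -0.46 to 0.30. With the replicate block 5 of the 10 genes were called, Smad3 being added (edgeR adjusted p = 0.0415), with 3318 calls over all genes and 31 in the pathway lists. The log2 ratio differences were the same, with a paired exact permutation p of 0.25, the smallest 3 pairs allow. Among the 10 genes, the widest intervals were those of Tgfb1, Tgfbr3, Smad3 and Smad7 (SE 0.28 each), at 40 to 359 reads per library. Width did not follow reads alone. Skil, with 1195 to 4219 reads, had an SE of 0.26, above the 0.21 of Ski, with 262 to 408 reads. Of the 112 pathway genes, 29 had too few reads to be tested.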
